A study of Mus musculus with 2 samples.

Results

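The unfolded protein response (UPR) genes described here are 10 genes of the endoplasmic reticulum (ER): *Hspa5*, *Hsp90b1*, *Calr*, *Pdia4*, *Pdia6*, *Dnajb9*, *Dnajc3*, *Sdf2l1*, *Xbp1* and *Herpud1*. They were chosen by gene name, and every probe for a transcript that carried one of these names on both arrays was taken, which gave 16 of 56605 probes and 10 of 37074 gene names. Total RNA came from control and *Drp1*LiKO mouse primary hepatocytes (C57BL/6 background by the labels), 1 array per genotype, harvested 24 h after seeding with no further treatment. In *Drp1*LiKO mice (Alb-Cre Tg/+ Drp1 flox/flox) Cre recombinase under the albumin promoter deletes *Drp1*, the gene for the mitochondrial fission protein DRP1, in hepatocytes. The control is labeled wild type, and the methods describe the controls as sibling littermates with Drp1 flox/flox and no Cre. The methods give an age for purchased mice only, and the age and number of the mice behind each of these cultures were not given in the sources used here. Cells that stayed attached to collagen were harvested whole, so each array holds the RNA of a culture, and fewer cells of a type cannot be told apart from less RNA per cell.

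The ER lumen folds secreted and membrane proteins with the help of chaperones and of enzymes that form disulfide bonds. When unfolded proteins build up, the sensors IRE1, PERK and ATF6 start the UPR, which raises chaperones and genes of ER-associated degradation (ERAD) and lowers protein synthesis. Hepatocytes secrete most plasma proteins and carry a large ER. The study followed ER stress in *Drp1*-deficient liver through phosphorylated eIF2α and the genes *Atf3*, *Ddit3*, *Nupr1* and *Trib3*, and the arrays also give the chaperones themselves in unstimulated hepatocytes.

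The differences in these genes were small and went in both directions. *Sdf2l1* and *Dnajb9* had 1.86-fold and 1.70-fold higher signals in *Drp1*LiKO than in control hepatocytes. *Hsp90b1*, *Pdia4* and *Pdia6* were 1.34-fold to 1.38-fold higher, and *Hspa5*, *Calr*, *Xbp1* and *Herpud1* had log2 ratios (*Drp1*LiKO minus control) between -0.12 and 0.19. *Dnajc3* was 1.75-fold lower. With 1 array per genotype the differences are those between these 2 arrays, and they carry no test or p-value.

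Promoters of many of these genes carry the ER stress response element (ERSE), whose CCAAT part is bound by NF-Y and whose CCACG part by ATF6 or XBP1. All 10 genes matched 1 promoter window each in RefSeq (GRCm38.p6), of 300 bases, 250 before and 50 after the annotated start. The letters CCAAT, any 9 bases and CCACG were searched on both strands and stand in the windows of 5 of the 10 genes, against 0.119% of all 32851 promoters. A related element, ERSE-II (ATTGG, any 1 base and CCACG), stands in that of *Herpud1*, against 0.0365% of all promoters. Many of these genes are known to carry ERSE, so the matches are not independent of the choice of the genes. The sequences around these matches are shown because 6 of the genes share them. They are written 5′ to 3′ in the direction of transcription, with the matched element in capitals. Where the element lies in the opposite direction, the capitals begin with CGTGG and end with ATTGG. The windows are *Hspa5* at chr2:34772000-34772068 (plus strand), *Hsp90b1* at chr10:86705508-86705681 (minus strand, with 1 element in each direction), *Pdia6* at chr12:17266466-17266534 (plus strand), *Calr* at chr8:84847050-84847118 (minus strand, opposite direction), *Dnajc3* at chr14:118937802-118937870 (plus strand) and *Herpud1* at chr8:94386352-94386412 (plus strand).
Hspa5: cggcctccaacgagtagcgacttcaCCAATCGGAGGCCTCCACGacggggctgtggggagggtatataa
Hsp90b1: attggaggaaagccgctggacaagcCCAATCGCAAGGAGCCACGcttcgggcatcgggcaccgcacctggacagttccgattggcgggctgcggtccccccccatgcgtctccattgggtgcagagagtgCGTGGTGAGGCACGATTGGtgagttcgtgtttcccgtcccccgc
Pdia6: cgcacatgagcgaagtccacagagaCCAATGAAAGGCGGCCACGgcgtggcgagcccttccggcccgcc
Calr: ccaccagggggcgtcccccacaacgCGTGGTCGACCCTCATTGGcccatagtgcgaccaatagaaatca
Dnajc3: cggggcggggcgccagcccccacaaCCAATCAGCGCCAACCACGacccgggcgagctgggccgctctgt
Herpud1: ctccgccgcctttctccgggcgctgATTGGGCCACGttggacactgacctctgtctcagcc

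The windows of *Pdia4*, *Dnajb9*, *Xbp1* and *Sdf2l1* did not hold these exact letters of either element. The 130 bases before the start of the genes with the largest increases, *Sdf2l1* (chr16:17132384-17132513, minus strand) and *Dnajb9* (chr12:44210069-44210198, minus strand), are shown with every CCAAT and CCACG, on either strand, in capitals. Both 5-letter parts stood at some distance from each other in 9 of the 10 windows, all but that of *Xbp1*, and in 11.7% of all promoters.
Sdf2l1: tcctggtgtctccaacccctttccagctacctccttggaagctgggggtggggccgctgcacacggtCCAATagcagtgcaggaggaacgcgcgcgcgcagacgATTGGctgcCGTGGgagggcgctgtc
Dnajb9: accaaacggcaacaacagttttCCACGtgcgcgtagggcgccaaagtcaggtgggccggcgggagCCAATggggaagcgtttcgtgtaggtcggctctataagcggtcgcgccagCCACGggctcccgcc

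**Figure D1:**
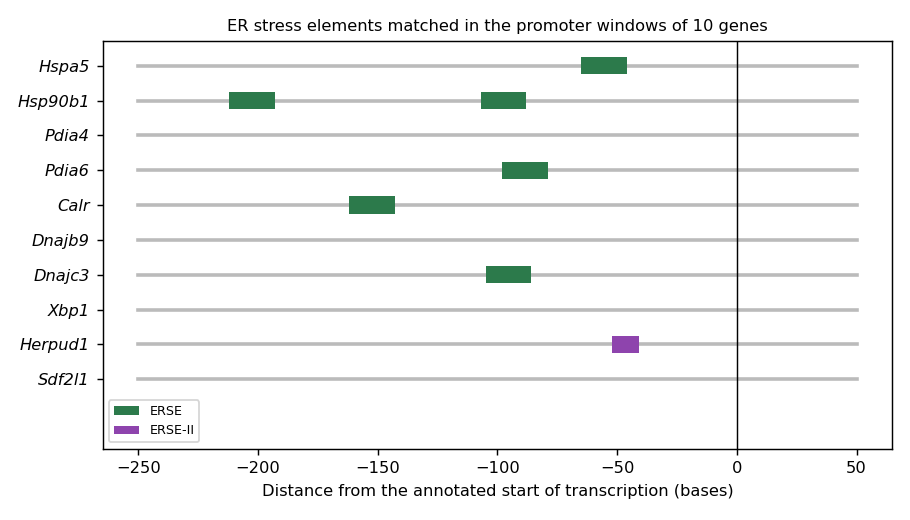
Exact matches of ERSE (green) and ERSE-II (purple) in the promoter windows of the 10 genes, in bases from the annotated start of transcription. *Hspa5*, *Hsp90b1*, *Pdia6*, *Calr* and *Dnajc3* hold an ERSE, *Hsp90b1* holds 2, *Herpud1* holds an ERSE-II, and the other 4 windows have no exact match of either.

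A gene with an ERSE was not always higher in *Drp1*LiKO cells. The log2 ratios of the 5 genes with an ERSE reached from -0.80 for *Dnajc3* to 0.46 for *Hsp90b1*, and those of the 4 genes with no match of either element from 0.19 for *Xbp1* to 0.90 for *Sdf2l1*. Over the whole genome 49 gene names had an ERSE or ERSE-II in their window, and 29 of them were detected on the arrays. Of the 23 that are not among the 10 genes, 13 were higher and 10 lower, with a median log2 ratio of 0.03, while 44.6% of all 20165 genes detected were higher and their median was -0.05. Outside the 10 genes, the largest ratios of genes with a match were those of *Spats2l* (1.46), *Acacb* (1.36), which encodes an acetyl-CoA carboxylase, and *Derl3* (1.34), and the lowest was that of *Zfp57* (-1.18). These 4 genes were chosen after their values were seen. Of the genes counted as higher, *Ptgdr2*, *Acnat2* and *Xlr3b* were not well above background in control cells and could hardly be lower. A match of letters is not a binding site shown to be used, and no binding was measured.

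Signals that follow are relative signals, that is, the processed signal of a probe divided by the 75th percentile of the probe signals on its array, 313 in the control and 356 in the *Drp1*LiKO culture. Each gene is represented by its brightest probe, and for the 10 genes every other probe is given beside it. The 16 probes were each printed once and all were well above background on both arrays. From 300 probes that were printed 10 times, the SD expected of a ratio between single spots was taken at the signal of each probe. This spot noise was from 0.05 to 0.17 on the log2 scale for these 16 probes and holds no difference between cultures. Different probes of 1 gene, over the 2666 genes with at least 2 bright probes, differed in log2 ratio by a median of 0.14, and by 0.42 or less in 90% of genes. The targeted gene *Drp1*, listed as *Dnm1l*, had a relative signal of 8.30 in the control and 3.42 in the *Drp1*LiKO culture, a log2 ratio of -1.28. Its other probe, close to background, went from 0.0729 to 0.0589, a log2 ratio of -0.31, and the median of both probes was -0.79. Both arrays lay on the same slide and were read in the same scan.

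**Figure D2:**
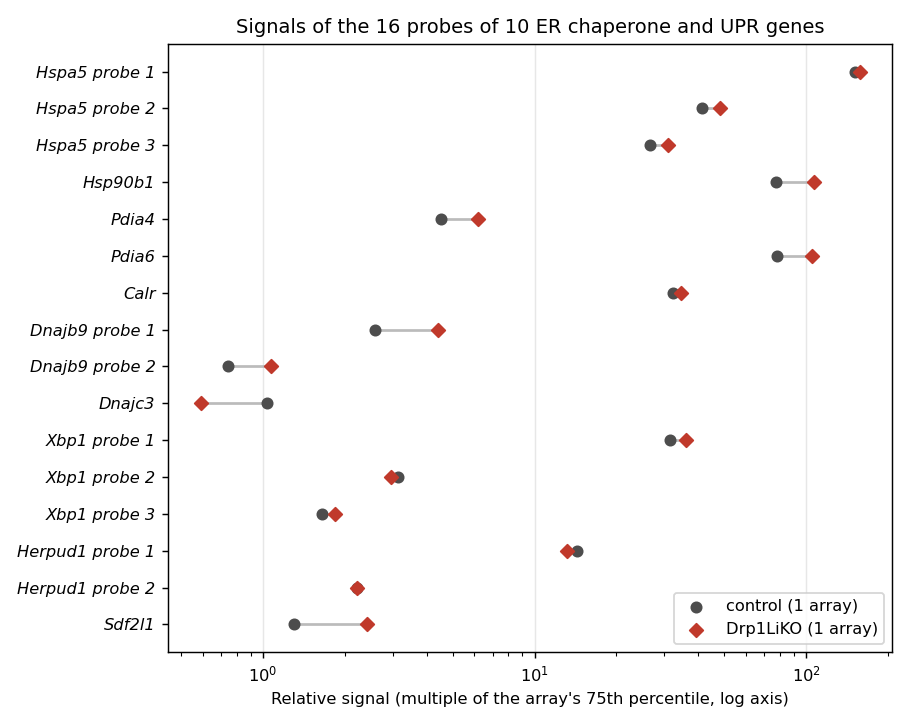
Relative signal (multiple of the array's 75th percentile, log axis) of the 16 probes of the 10 genes in control (gray circles) and *Drp1*LiKO (red diamonds) hepatocytes, 1 array each. *Sdf2l1* and both probes of *Dnajb9* lie to the right in *Drp1*LiKO cells, *Dnajc3* lies to the left, and both symbols of the second *Herpud1* probe coincide at 2.22.

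The large chaperones of the ER lumen are encoded by *Hspa5*, *Hsp90b1* and *Calr*. *Hspa5* encodes BiP, the HSP70 chaperone of the ER, which also keeps the 3 UPR sensors inactive. Its brightest probe (NM_022310, chr2:34631913-34631972 in mm9, plus strand) had a relative signal of 151 in the control and 157 in the *Drp1*LiKO culture, a log2 ratio of 0.06 with a spot noise of 0.05. The other probes of *Hspa5* went from 41.3 to 48.3 and from 26.7 to 31.0, with log2 ratios of 0.23 and 0.22. All *Hspa5* probes were thus higher in *Drp1*LiKO cells, the brightest by about its spot noise and the others by more than 3 times theirs. These other 2 probes had log2 ratios of 0.72 and 0.70 in the normalized table that the authors deposited, the largest gap between that table and the array signals among the 10 genes.

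*Hsp90b1* encodes GRP94, the HSP90 chaperone of the ER, which folds integrins and Toll-like receptors. It had a relative signal of 77.7 in the control and 107.2 in the *Drp1*LiKO culture, a log2 ratio of 0.46 with a spot noise of 0.06. *Calr* encodes calreticulin, a lectin that holds newly made glycoproteins until they are folded. Its relative signal was 32.2 in the control and 34.5 in the *Drp1*LiKO culture, a log2 ratio of 0.10. Of these chaperones only *Hsp90b1* differed by more than the 0.42 that bounds most disagreements between probes of a gene. Of all genes detected, 86.6% had a lower log2 ratio than *Hsp90b1*, 65.6% a lower one than *Calr* and 61.5% a lower one than *Hspa5*.

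*Pdia4* and *Pdia6* encode protein disulfide isomerases, which form and rearrange disulfide bonds, and PDIA6 also binds IRE1 and limits its activity. *Pdia4* had a relative signal of 4.52 in the control and 6.19 in the *Drp1*LiKO culture, and *Pdia6* of 78.1 and 105. The log2 ratios of both were alike, 0.45 and 0.43. Each rests on 1 probe, and *Pdia4* reached 0.63 in the deposited normalized values.

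The co-chaperones held the largest differences, in both directions. *Sdf2l1* encodes an ER protein that works with BiP and its J-proteins and keeps misfolded proteins from aggregating. Its probe (NM_022324, chr16:17130426-17130485 in mm9, minus strand) had a relative signal of 1.30 in the control and 2.41 in the *Drp1*LiKO culture, a log2 ratio of 0.90 with a spot noise of 0.14. This was the highest log2 ratio of the 10 genes, and 93.8% of all genes had a lower one. It was 0.63 in the deposited normalized values.

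*Dnajb9* encodes ERdj4, a J-protein that brings BiP to misfolded proteins and to IRE1. Its brightest probe (NM_013760, chr12:45307071-45307129 in mm9, minus strand) went from 2.59 in the control to 4.40 in the *Drp1*LiKO culture, a log2 ratio of 0.76 with a spot noise of 0.11. The other *Dnajb9* probe went from 0.744 to 1.07, a log2 ratio of 0.53. Both probes were higher in *Drp1*LiKO cells by more than 3 times their spot noise, and 92.4% of all genes had a lower log2 ratio than the brightest.

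*Dnajc3* encodes P58IPK, a J-protein of the ER lumen that also inhibits PERK. Its only probe (NM_008929, chr14:119380429-119380488 in mm9, plus strand) had a relative signal of 1.03 in the control and 0.592 in the *Drp1*LiKO culture, a log2 ratio of -0.80 with a spot noise of 0.17. Only 6.66% of all genes had a lower log2 ratio. *Dnajc3* therefore lay at the other end of the range from *Sdf2l1* and *Dnajb9*, and all of them encode partners of BiP.

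*Xbp1* encodes the transcription factor whose mRNA IRE1 splices. Its brightest probe had a relative signal of 31.5 in the control and 36.0 in the *Drp1*LiKO culture, a log2 ratio of 0.19. Its other probes went from 3.13 to 2.97 and from 1.64 to 1.85, with log2 ratios of -0.08 and 0.17, so the probes of *Xbp1* disagreed in sign. The arrays were not used to separate spliced from unspliced *Xbp1* mRNA. *Herpud1* encodes an ER membrane protein of the ERAD machinery. It had a relative signal of 14.3 in the control and 13.2 in the *Drp1*LiKO culture, a log2 ratio of -0.12, and its other probe was at 2.22 in both, a log2 ratio of 0.00.

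**Figure D3:**
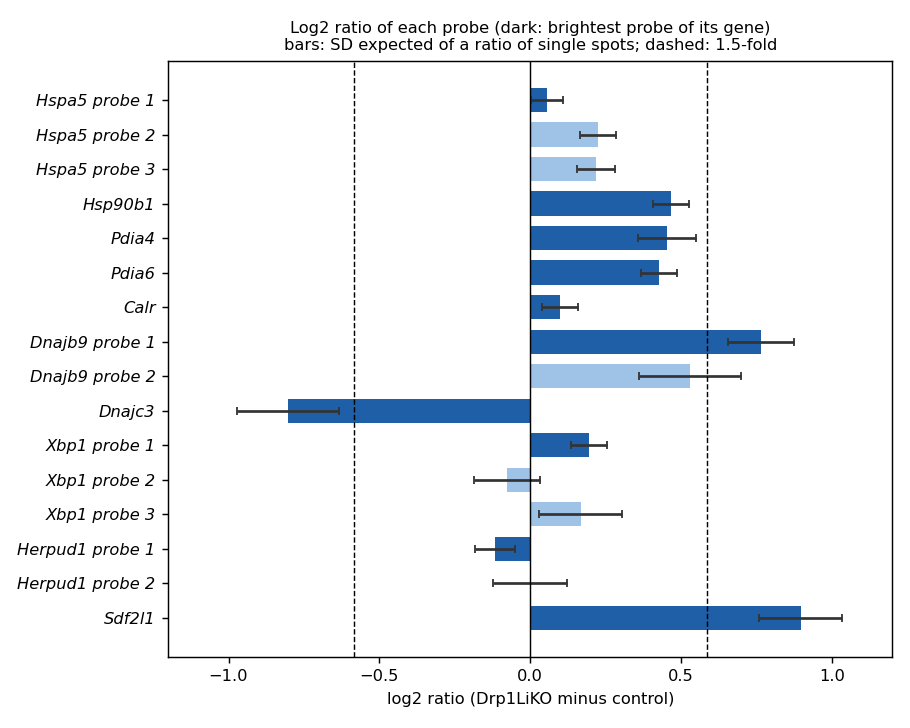
Log2 ratio (*Drp1*LiKO minus control) of each of the 16 probes, with the brightest probe of a gene in dark blue and the others in light blue. The error bars are the SD expected of a ratio between single spots and not a spread between cultures, the dashed lines mark 1.5-fold, and only *Sdf2l1*, *Dnajc3* and the brightest probe of *Dnajb9* lie beyond them.

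Counted by their brightest probes, 8 of the 10 genes lay above a log2 ratio of 0 and 2 below it, while 44.6% of all genes lay above and 55.4% below. The median of the 10 log2 ratios was 0.31, against -0.05 over all genes. Past 1.5-fold, 2 genes were higher (*Sdf2l1* and *Dnajb9*), where 10.4% of all genes were, and 1 was lower (*Dnajc3*), where 10.3% were. Bright probes vary less than dim ones. Among the 11495 genes at least as bright as the dimmest of the 10, 5.91% were higher and 5.63% lower by 1.5-fold, and 42.5% lay above 0. The study picked genes by a Z score of 2, here the log2 ratio minus the mean of the 30275 probes detected, divided by their SD of 0.65. A Z score of 2 lay at a log2 ratio of 1.30, and 0 of the 10 genes reached it in either direction, where 3.48% of all genes did upward and 2.81% downward.

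Fold changes of this size depend on the processing for some of the genes. Over 9 other ways to scale, filter and summarize the signals, *Sdf2l1* had log2 ratios from 0.63 to 0.94, *Dnajb9* from 0.65 to 0.80 and *Dnajc3* from -0.80 to -0.61, and each stayed past 1.5-fold in 9 of 9. Settings that concern only dim probes could not move the 10 genes, whose probes were all well above background on both arrays. The median of probes could not move genes with 1 probe, such as *Sdf2l1* and *Dnajc3*. *Hsp90b1* lay between 0.46 and 0.52 and *Pdia6* between 0.40 and 0.47. *Hspa5* reached 0.22 when the median of its probes was used, and *Calr* reached 0.27 in the deposited normalized values. *Herpud1* was the only one of the 10 genes to change sign, at 0.01 in the deposited normalized values.

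**Figure D4:**
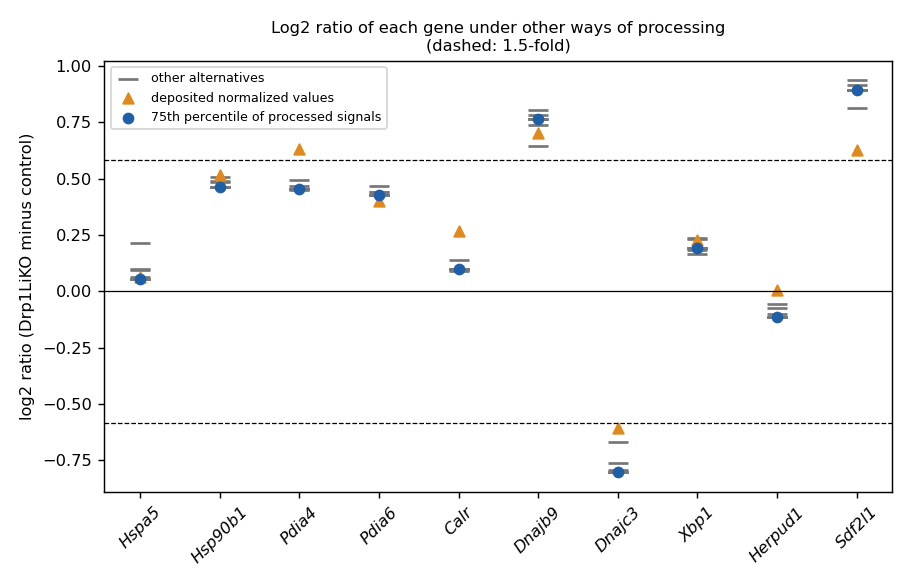
Log2 ratio of each of the 10 genes from processed signals scaled to the 75th percentile (blue circles), from the deposited normalized values (orange triangles) and under the other alternatives (gray dashes), with dashed lines at 1.5-fold. *Sdf2l1*, *Dnajb9* and *Dnajc3* stayed beyond 1.5-fold, and *Pdia4* passed it at 0.63 in the deposited normalized values.

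Among the sensors and transcription factors upstream of these genes, few differed by 1.5-fold at their brightest probe. Of 12 such genes, 5 were higher and 7 lower, with a median of -0.10, which turned to 0.07 when the median of each gene's probes was used. *Ern2*, counted as lower, was not well above background in *Drp1*LiKO cells and could hardly be higher. Over the 11 genes well above background on both arrays, 5 were higher and 6 lower, with a median of -0.05. Beside the counts of this list and of those that follow stand the 44.6% of all genes that were higher. *Ern1*, *Eif2ak3* and *Atf6*, which encode the sensors IRE1α, PERK and ATF6, had log2 ratios of -0.15, -0.05 and 0.14, and *Atf6b* had 0.18. The probes of *Ern1* disagreed, since the others were at -0.15 and at 1.45, the last from a relative signal of 0.348 to 0.951, and the other probe of *Eif2ak3* was at 0.23. *Mbtps1*, the site-1 protease that cleaves ATF6, was at -0.54 and between -0.78 and -0.38 by its other probes, *Creb3* at -0.43 and *Creb3l2* at -0.29. *Creb3l3*, which encodes CREBH, a membrane-bound factor of hepatocytes that is cleaved like ATF6, was the exception, with a relative signal of 7.45 in the control and 15.6 in the *Drp1*LiKO culture, a log2 ratio of 1.07.

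Of 28 other genes of ER protein folding, 9 were higher and 19 lower, with a median of -0.13. The highest was *Creld2*, a disulfide isomerase-like protein, with a relative signal of 39.3 in the control and 60.7 in the *Drp1*LiKO culture, a log2 ratio of 0.63. *Hyou1*, the nucleotide exchange factor of BiP, was at 0.49 by its brightest probe and at 0.16 and 0.08 by its others, all of them at low signals. *Manf*, a secreted ER protein that binds BiP, was at 0.37. The lowest was *Pdia5*, another disulfide isomerase, which went from 9.39 to 4.59, a log2 ratio of -1.03, opposite in sign to *Pdia4* and *Pdia6*. *Ganab* and *Uggt1*, which trim and re-add glucose on glycoproteins for the calreticulin cycle, were at -0.52 and -0.50, and a dimmer probe of each was at -0.19 and -0.10.

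In ERAD, 20 of 21 genes were detected, 11 higher and 9 lower, with a median of 0.00 whose sign changed between scalings. *Derl3*, a derlin of the retrotranslocation channel, went from 0.498 in control to 1.26 in the *Drp1*LiKO culture, a log2 ratio of 1.34 and a Z score of 2.06, the only gene of the ER lists past the Z score of 2. *Ubxn4* was at 0.40 and *Edem1* at 0.21, with its other probe at -0.04. The lowest by their brightest probes were *Edem3* (-0.20), *Vcp* (-0.18) and *Rnf5* (-0.17). Other probes of *Edem3* were at 0.34, not well above background in control cells, and at 0.83, close to background. Such probes say little about its direction. Other, dimmer probes of *Vcp* were between -0.09 and 0.35, so neither gene has a settled direction. *Sel1l* and *Syvn1*, the core of the ubiquitin ligase that *Herpud1* joins, were at 0.08 and 0.03.

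Of 19 genes of ER translocation and signal peptide removal, 5 were higher and 14 lower, with a median of -0.10. *Spcs3*, a subunit of the signal peptidase, went from 7.74 to 4.38, a log2 ratio of -0.82. *Sec61a1*, the pore of the translocon, was at -0.53 and *Ssr1* at -0.42. The highest were *Sec11c* (0.16), *Srpr* (0.14) and *Spcs2* (0.12).

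Genes that PERK raises through ATF4 had a median of 0.17, with 8 of 11 higher, 3 lower and none past 1.5-fold. Over all genes 44.6% were higher, and past 1.5-fold 10.4% were higher and 10.3% lower. *Ppp1r15a* passed 1.5-fold with spike-in scaling (0.61) and normexp background correction (0.59), and *Ppp1r15a* (0.93), *Atf3* (0.67), *Vldlr* (0.65) and *Ddit4* (1.16) did in the deposited normalized values, where the median was 0.29. *Ppp1r15a*, which encodes the eIF2α phosphatase subunit GADD34, was at 0.57, *Vldlr* at 0.49 and *Atf3* at 0.47. *Atf4* was at 0.35, and *Ddit3*, which encodes CHOP, at 0.40, with its other probe at 0.35. *Trib3* was at 0.17 and *Nupr1* at 0.07. The lowest were *Chac1* (-0.37), *Asns* (-0.31) and *Sesn2* (-0.25), which are targets of ATF4 too.

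Together, 90 of 91 genes of these 5 lists were detected. Past 1.5-fold, 3 were higher (3.33%) and 2 lower (2.22%), with 10.4% and 10.3% over all genes beside them. Among the 11495 genes at least as bright as the dimmest of the 10, the shares were 5.91% and 5.63%. Most genes of the lists were that bright and some were dimmer. The median of the 10 genes, 0.31, was above that of each of these lists, which were not compared by a test. It was about that of the hepatocyte markers described further on (0.32). The summed relative signal of those markers was 1965 in the control and 1914 in the *Drp1*LiKO culture.

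**Figure D5:**
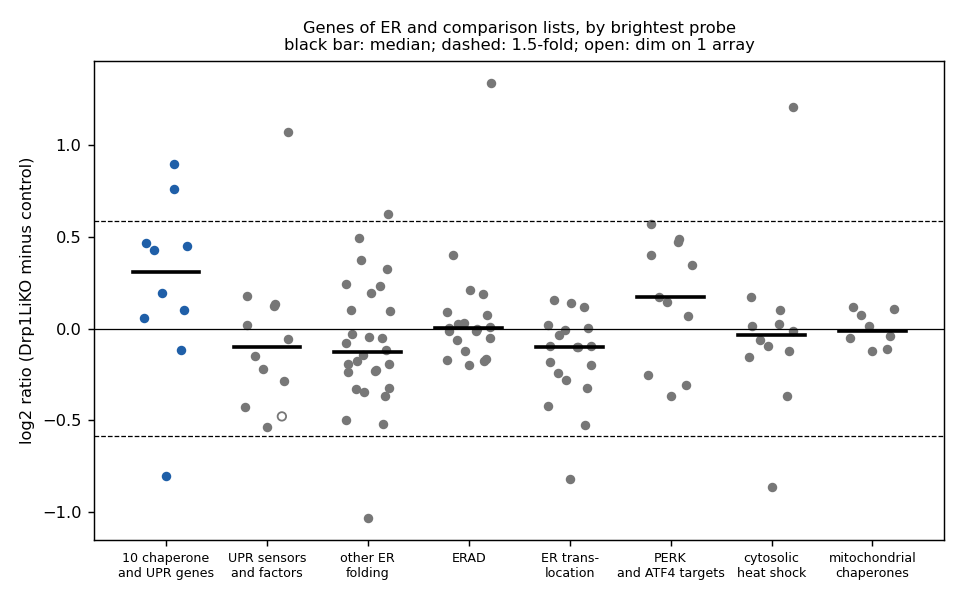
Log2 ratio (*Drp1*LiKO minus control) of each detected gene, by its brightest probe, in the 10 chaperone and UPR genes (blue) and in lists of related ER genes and of chaperones outside the ER (gray). Black bars are medians, dashed lines mark 1.5-fold and the open circle is *Ern2*, dim on 1 array. The median of the 10 genes lies at 0.31 and those of the other lists between -0.13 and 0.17.

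Chaperones outside the ER had medians near 0, with single genes farther off. Of 12 genes of the cytosolic heat shock response, 5 were higher and 7 lower, with a median of -0.04, which was above 0 with quantile normalization and with spike-in scaling. *Hspa1a* was at 1.21, but *Hspa1b*, nearly identical in sequence, at 0.02, so neither value is certain to belong to its gene. *Hsp90aa1* was at 0.17 and *Hsph1* at 0.10, while *Hspa2* was at -0.87, *Hspb1* at -0.37 and *Hsp90ab1* at -0.16. Of 8 mitochondrial chaperones and proteases, 4 were higher and 4 lower, from -0.12 for *Hspd1* to 0.12 for *Hspa9*, the mitochondrial relative of *Hspa5*. Their median was -0.01 and changed sign with the scaling.

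The cultures also differed in markers of liver cell types, all of which express ER chaperones. Hepatocyte markers were well above background on both arrays in 10 of 10 genes, of which 7 were higher and 3 lower. Their median was 0.32, close to the 0.31 of the 10 chaperone and UPR genes. Their summed relative signal, however, was 1965 in the control and 1914 in the *Drp1*LiKO culture. *Alb* had a relative signal of 701 in the control and 750 in the *Drp1*LiKO culture. *Arg1* (1.63), *Tat* (1.28), *Tdo2* (1.06) and *Cps1* (0.65) were higher by more than 1.5-fold, and *Cyp2e1* (-0.78) was lower. In the control, *Arg1*, *Tat*, *Tdo2* and *Cps1* had low relative signals of 0.318, 0.483, 1.95 and 0.209. The brighter *Apoa1*, *Serpina1a*, *Hnf4a* and *Ttr* were at -0.17, -0.18, 0.09 and 0.54.

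A marker kept only because it was bright on the *Drp1*LiKO array could hardly be lower there, so the markers of other cells are counted over the genes well above background on both arrays. Of the markers of Kupffer cells and macrophages, 7 of 7 such genes were higher in *Drp1*LiKO cells, *Marco* (3.45), *Cd5l* (3.05), *Adgre1* (2.65), *C1qa* (2.63), *Lyz2* (2.25), *Cd68* (1.85) and *Csf1r* (0.73, with its other probe at -0.02). Their summed relative signal was 14.3 in the control and 53.3 in the *Drp1*LiKO culture. *Clec4f* and *Vsig4* were not well above background in control cells and *Timd4* on neither array.

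Endothelial markers were higher in 6 of 6 genes, by a median of 1.60 and with summed relative signals of 13.1 and 23.5, in *Kdr*, *Clec4g*, *Cdh5*, *Pecam1*, *Stab2* and *Egfl7*, while *Tie1* and *Lyve1* were not well above background in control cells. Stellate cell markers were higher in 3 of 3 genes, *Reln* and *Col1a1* at 1.04 each and *Acta2* at 0.02, with another *Acta2* probe at 2.20. Their summed signals were 69.0 and 70.5, most of it *Acta2*, while *Des*, *Pdgfrb* and *Col3a1* were not well above background in control cells and *Lrat* was not detected. With normexp background correction the medians over all detected markers, dim ones included, went from 2.52 to 1.85 for Kupffer cells and macrophages, from 1.70 to 0.84 for endothelial and from 1.04 to 0.47 for stellate cells. The part of these cells in the signals of *Sdf2l1*, *Dnajb9*, *Hsp90b1*, *Pdia4* and *Pdia6*, and in those of the other chaperone genes, was not tested.

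Plasma cells are rich in the ER proteins described here. Their genes *Jchain* and *Mzb1*, and the B cell genes *Cd79a* and *Cd79b*, were not detected on either array, and *Ms4a1* was near background. *Sdc1* had a relative signal of 13.4 in the control and 12.0 in the *Drp1*LiKO culture, a log2 ratio of -0.15. Which cells the *Sdc1* signal came from was not tested. Among T and NK cell markers 1 of 5 was detected (*Cd3e*, -0.37). Among neutrophil markers 1 of 4 was detected (*Ly6g*, not well above background in control cells). Among cholangiocyte markers 3 of 4 were detected, with *Krt19* at -0.40, *Sox9* at 0.58 and *Krt7* not well above background in control cells.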

How the data were processed

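RNA of control and *Drp1*LiKO mouse primary hepatocytes was hybridized to Agilent 60-mer arrays, 1 per genotype, with Cy3 as the only dye. The scanner files that the authors deposited hold the intensity of every spot, a processed signal after background subtraction by Feature Extraction (version 9.5.1.1 in the submitters' notes and 10.7.1.1 in the file headers), and a table of normalized intensities. The *Drp1*LiKO column of that table had a rank correlation of 0.958 with its array, so it served only as an alternative. Log2 signals were averaged over the spots of a probe, without control and outlier spots, and scaled by subtracting the 75th percentile of the array. Probes were kept where either array was well above background. Signals not well above background were set to the lowest signal that was (18.2 on the control and 15.0 on the *Drp1*LiKO array). Such ratios depend on this floor and are approximate. The number of arrays limits the precision, and no replicate exists. The members and gene lists were chosen with earlier results of these data known. Genes named were the 10 genes, *Dnm1l*, *Atf3*, *Ddit3*, *Nupr1*, *Trib3*, and in each list up to 3 genes at either end and those past 1.5-fold (dim markers without a value), and other genes named were chosen after their values were seen. Alternatives were quantile normalization, spike-in scaling, normexp with an offset of 50, the deposited normalized values, other filters and floors, outlier spots kept, 2 other Z scores and the median of a gene's probes. Promoters were those of RefSeq (GRCm38.p6), and probe coordinates are those of the files (mm9). Steps were tested on simulated data made from the control array, where 200 of 200 changed genes among 18356 were recovered past 1.5-fold. Those changes were at least 2-fold, larger than any in the 10 genes, and the added noise was below their spot noise. The test therefore does not show how well differences of their size are recovered. For 1 listed marker gene no value is reported here. Tools were R 4.3.3, limma 3.58.1, Python 3.11.15, matplotlib 3.10.9, pandas 2.3.3 and numpy 2.4.6.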

Additional observations from a re-analysis of the deposited data

How the results depend on the processing

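No paired analysis was possible because each genotype has 1 array and the labels carry no replicate numbers. For the same reason no array could be left out, and the depth of an array is limited by its signal over background, which was no limit for the 16 probes. Of 103 values of counts and of the median of the 10 genes under the alternatives, 94 stayed within 1.5 times, or for the median within 0.1, of the reported value. Some of these could not change, since settings for dim probes leave the log2 ratios of the 10 genes as they are. In the deposited normalized values 1 of the 10 genes was lower in place of 2, as *Herpud1* went from -0.12 to 0.01, and in the 5 ER lists 8 genes were higher and 5 lower by 1.5-fold in place of 3 and 2. The cause was not tested. With normexp background correction 1 of the 10 genes passed the Z score of 2 upward (*Sdf2l1*, 2.06), and 0 genes of the other chaperone lists were lower by 1.5-fold in place of 1. With no filter on dim probes 1 gene passed it upward (*Sdf2l1*, 2.10), where the median of all genes was -0.47 in place of -0.05. With a robust Z score 2 genes passed upward (*Sdf2l1*, 2.56, and *Dnajb9*, 2.20) and 1 downward (*Dnajc3*, -2.14), since the spread used leaves out the tails. When the Z score was taken among probes of like signal, 1 gene passed upward (*Hsp90b1*, 2.03), since bright probes vary less. The share of all genes past the Z score under these alternatives is not given here, so these calls have no background beside them.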
